A study of Mus musculus with 8 samples.

Results

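The nuclear-encoded subunits of the mitochondrial respiratory chain were followed by complex in RNA from cells described as mouse calvarial osteoblasts. Members were chosen by gene symbol alone, as the genes whose names begin with Nduf and a subunit letter and number, Sdha to Sdhd, Uqcr, Cox4 to Cox8, or Atp5. Of 25239 gene symbols in the count table, 88 rows matched, 2 of them pseudogenes marked by their names that were left out, and 86 members remained. They comprised 39 genes of complex I, 4 of complex II, 8 of complex III, 18 of complex IV and 17 of complex V. The name pattern leaves out Cyc1, the cytochrome c1 of complex III, and Ndufab1, the acyl carrier protein of complex I, which are mentioned below beside their complexes. Genes carried by the mitochondrial DNA were not analysed here.

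The libraries came from primary cells of the skull cap of mice, sequenced as polyadenylated RNA, with 4 control libraries and 4 labelled OSX-SphK2 knockout. The controls were littermates, labelled WT, and Sphk2 encodes sphingosine kinase 2, an enzyme that makes sphingosine 1-phosphate. Osterix (Osx, encoded by Sp7) marks cells committed to the osteoblast lineage, and a deletion under its control would reach only cells that express it. The labels give no age, strain or culture time, and do not give the number of animals per library. The p-values below measure only how far these libraries spread, and part of that spread may be technical.

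The respiratory chain sits in the inner mitochondrial membrane and passes electrons from NADH (through complex I) and succinate (through complex II) by way of coenzyme Q, complex III and cytochrome c to oxygen at complex IV. Complexes I, III and IV pump protons, and complex V, the ATP synthase, uses the return of those protons to make ATP. Mature bone-resorbing osteoclasts are known for being rich in mitochondria, while osteoblasts are known to draw heavily on glycolysis.

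Total counts ran from 14347495 to 19065421 per library. The level of Sphk2 did not separate the groups, so it does not check the labels. It was 75.8, 64.2, 82.5 and 134 CPM across control libraries 1 to 4 and 69.7, 72.3, 72.1 and 131 CPM across the libraries labelled knockout, where CPM is the count relative to the library size after TMM scaling. Markers fixed for other cell types were present beside those of osteoblasts. Over libraries 1 to 3 of both groups, 12 osteoblast markers summed to 7709.6 to 16881 CPM and 12 macrophage markers to 29299 to 38955 CPM. The 12 osteoclast markers summed to 511 to 571 CPM there, against 11724 CPM in control 4 and 7830.1 CPM in the library labelled knockout 4. Osteoblast markers summed to 6432 and 4157 CPM in that pair. The 10 neutrophil markers stayed between 0.945 and 3.64 CPM in all 8 libraries. Of the 10 skeletal muscle markers, Myh1, Myh2, Myh4, Myod1 and Myog had no counts in any library, and of the 6 erythroid markers only Alas2 had counts. Bglap2, which encodes the osteoblast product osteocalcin, was at 0.212, 0.0562, 0.349 and 0.979 CPM across control libraries 1 to 4 and 40.7, 0.598, 0.778 and 0 CPM across the libraries labelled knockout, so this late osteoblast marker was nearly absent outside 1 library.

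Between the groups, no respiratory chain member passed the threshold. Of the 86 members, 76 had enough counts to be tested, and 0 of these were called with edgeR's quasi-likelihood test over 12837 genes (Benjamini-Hochberg adjusted p, threshold 0.05). The background was the same, with 0 of 12837 genes called (0%). At an unadjusted p under 0.05 there was 1 member, Cox6b2, against 631 genes in all (4.92%), and DESeq2 called 0 members and 171 genes (1.33%, with 0.958% higher and 0.374% lower). The fitted fold changes leaned one way: 74 of 76 members had a log2 fold change below 0, against 53.3% of all genes tested. The lean was small beside its error, with a median of −0.16 over the 76 members, a median SE of 0.41 and a median of −0.02 over all genes. The medians by complex were −0.16 for complex I, −0.14 for complex II, −0.23 for complex III, −0.16 for complex IV and −0.17 for complex V.

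Most of the spread behind those standard errors lay between number 4 and the other numbers. The median SE of the members was 0.41 without a term for the number, 0.09 with one, and 0.08 without number 4. The tested complex I genes summed to 1055, 1059, 1090.1 and 2441 CPM across control libraries 1 to 4 and 1048, 1070.2, 1095 and 1945 CPM across the libraries labelled knockout. Complex II summed to 383, 343, 382 and 977 CPM across control libraries 1 to 4 and 384, 392, 392 and 735 CPM across the libraries labelled knockout. Complex III summed to 411, 399, 412 and 1150.1 CPM across control libraries 1 to 4 and 405, 386, 395 and 839 CPM across the libraries labelled knockout. In each of these complexes the 6 libraries numbered 1 to 3 lay close together and both libraries numbered 4 stood above them.

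The same held for the last steps of the chain. Complex IV summed to 909.7, 879, 955 and 2186 CPM across control libraries 1 to 4 and 801, 803, 825 and 1806 CPM across the libraries labelled knockout. Complex V summed to 1749, 1759, 1812 and 4407 CPM across control libraries 1 to 4 and 1701, 1809.8, 1792 and 3338 CPM across the libraries labelled knockout. Control 4 was 2.29 to 2.82 times the mean of the other controls over the 5 complexes. The library labelled knockout 4 was 1.82 to 2.23 times the mean of its group's other libraries. The members took 0.440% to 0.464% of all counts in numbers 1 to 3 and reached 1.10% in control 4.

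**Figure D1:**
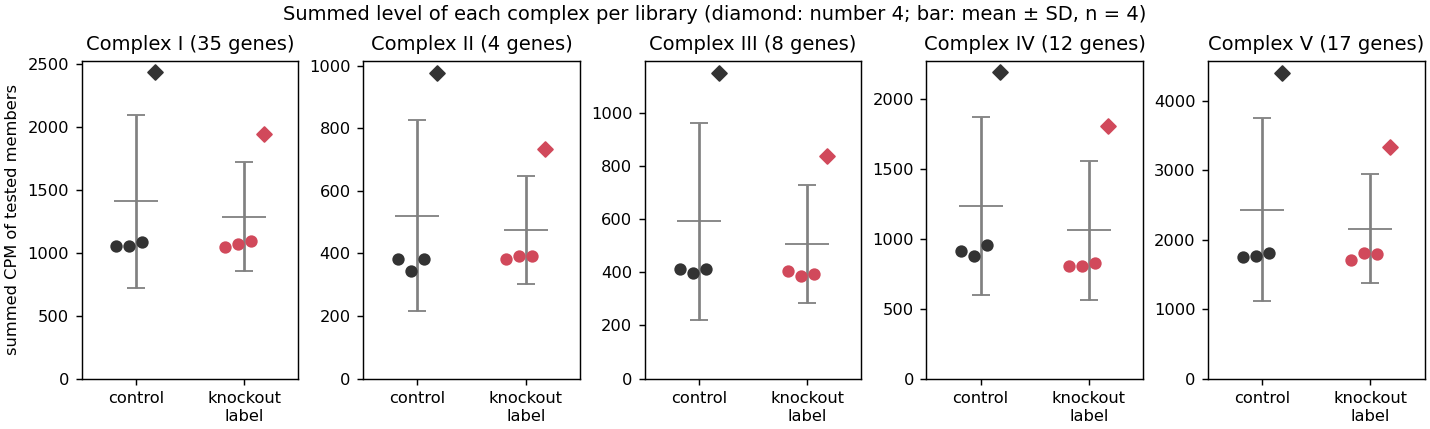
Summed CPM of the tested members of each complex (vertical axes, each from 0) for the 4 control libraries (black) and the 4 labelled knockout (red); points are libraries, diamonds are number 4, and bars are the mean ± SD (n = 4). In complex I the libraries numbered 1 to 3 lie between 1048 and 1095 CPM in both groups, while number 4 is at 2441 CPM in the controls and 1945 CPM in the libraries labelled knockout.

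Both libraries numbered 4 were above all 6 others in 75 of 76 tested members, against 34.2% of all genes tested. The exception was Cox6b2. On the log2 CPM scale, control 4 stood above the mean of controls 1 to 3 by a median of 1.37 over the members, and the library labelled knockout 4 above the mean of its group's other libraries by a median of 1.04. The same medians over all genes were 0.03 and −0.00. By complex the control medians were 1.21 for I, 1.48 for II, 1.46 for III, 1.41 for IV and 1.51 for V, and the others were 0.89, 1.02, 1.12, 1.06 and 1.12. The largest shifts in controls were in Uqcr10, a small complex III subunit (2.06), and Atp5k, the e subunit of ATP synthase (1.92). The smallest were in Cox7a2l (0.33), a relative of Cox7a2 known for joining complexes III and IV, and in Cox6b2 (0.61) and Ndufs8 (0.62), an iron-sulphur subunit of complex I. Across the 76 members the shifts in the 2 groups ranked alike, with a Spearman rho of 0.78, beside 0.85 across all 12837 genes, where each shift comes from a single library and all genes of a library share its depth. Shorter transcripts had larger shifts across all 12194 genes with a length, with a Spearman rho of −0.43 in both groups. Across the 75 members with a length it was −0.13 in controls and −0.38 in libraries labelled knockout.

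Markers of other cells moved with number 4 as well. All 12 osteoclast markers had counts, and Acp5, the tartrate-resistant acid phosphatase of osteoclasts, lay between 11.9 and 22.9 CPM in numbers 1 to 3 and was at 3446 CPM in control 4 and 1699 CPM in the library labelled knockout 4. Ctsk, the collagen-degrading cathepsin K, lay between 15.2 and 41.7 CPM and was at 811 and 711 CPM. Not every osteoclast marker was raised in both, since Nfatc1, a transcription factor of osteoclast formation, was at 99.4, 105, 96.03 and 209.8 CPM across control libraries 1 to 4 and 100.1, 99.4, 103 and 99.6 CPM across the libraries labelled knockout. The 12 macrophage markers summed to 35276 CPM in control 4, within their range in numbers 1 to 3, and to 49679 CPM in the library labelled knockout 4, the highest of the 8. Within pair 4 the macrophage sum was thus higher, and the osteoclast sum lower, in the library labelled knockout. A single macrophage marker, Lyz2, accounted for most of the macrophage gap. It was at 20611 CPM in control 4 and 34460 CPM in the library labelled knockout 4. The 7 adipocyte markers summed to 2.15 to 8.56 CPM in numbers 1 to 3 and to 13.6 and 12.1 CPM in number 4. The 6 endothelial markers summed to 10.02 to 14.6 CPM in numbers 1 to 3 and to 42.1 and 62.9 CPM in number 4. The 6 chondrocyte markers summed to 443 to 1310 CPM and to 41.4 and 231 CPM. The part of these cells in the members' levels was not tested. In bulk RNA a change in the share of a cell type and a change in RNA per cell cannot be told apart.

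Other metabolic lists shared the higher level in number 4, to different degrees. Both number 4 libraries were above all others in 96.2% of 78 mitochondrial ribosomal proteins, which translate the mitochondrial DNA's messages, and in 90% of 20 glycolysis genes. The median shifts were 1.002 and 0.68 for the first list (controls, then libraries labelled knockout) and 1.74 and 1.504 for glycolysis. For 83 cytosolic ribosomal proteins they were 0.41 and 0.75, with 67.5% above all others, and for 18 genes of the tricarboxylic acid cycle 0.91 and 0.42, with 77.8%. For 18 regulators of mitochondrial gene expression, among them Nrf1, Gabpa, Tfam and the Ppargc1 family, they were 0.22 and 0.21, with 50%.

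**Figure D2:**
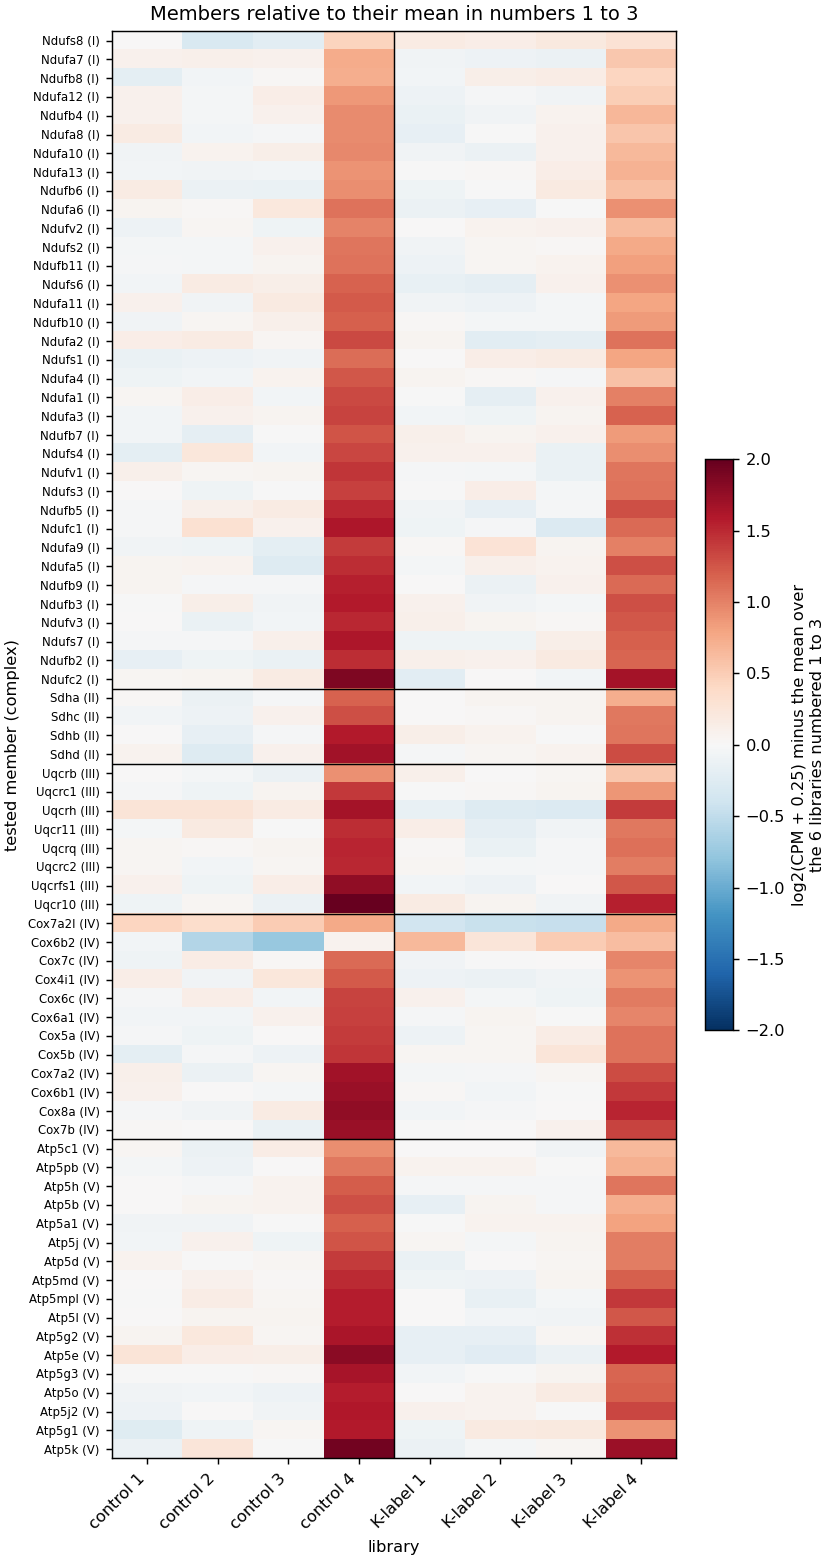
Each row is 1 of the 76 tested members, grouped by complex from I at the top to V at the bottom and ordered within a complex by the shift of control 4; columns are the 8 libraries, and colour is log2(CPM + 0.25) minus the member's mean in the 6 libraries numbered 1 to 3. Both number 4 columns are red in nearly every row, paler in the library labelled knockout 4, and the row of Cox7a2l splits by group in numbers 1 to 3.

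Within number 4 the library labelled knockout was below its control in 74 of 76 members, against 47.6% of all genes. This was not particular to the members. The same held for 18 of 18 genes of the tricarboxylic acid cycle and 19 of 20 glycolysis genes. It also held for 82 of 83 cytosolic and 73 of 78 mitochondrial ribosomal proteins, and for 13 of 18 regulators of mitochondrial gene expression. The median difference in that pair was −0.32 on the log2 CPM scale over the members and 0.01 over all genes. The 2 members not below were Cox7a2l (0.01) and Cox6b2 (0.59). In pairs 1, 2 and 3 the members' medians were −0.02, 0.01 and −0.00, with 43, 36 and 38 of 76 members lower. By complex, pair 4 gave −0.32 for I, −0.41 for II, −0.44 for III, −0.31 for IV and −0.30 for V, and the medians of pairs 1 to 3 lay between −0.07 and 0.20. Each side of pair 4 is a single library, so its difference has no replicate. Without number 4, 34 members had a fold change above 0 and 42 below, and the median over the members was −0.02.

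Without number 4 the comparison was 3 libraries against 3. There the summed level was 1068 ± 19.4 CPM in controls and 1071 ± 23.4 CPM in libraries labelled knockout for complex I (SD, n = 3 each). For complex II it was 369.5 ± 22.7 and 389 ± 4.89 CPM. For complex III it was 408 ± 7.26 and 395 ± 9.44 CPM, and for complex V 1773 ± 34.2 and 1768 ± 58.6 CPM. The groups overlapped in complexes I, III and V. In complex II they did not overlap, with the libraries labelled knockout higher. There the lowest library labelled knockout (383.5 CPM) and the highest control (383.2 CPM) were nearly level.

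The summed level of complex IV did not overlap between the groups in numbers 1 to 3 either, with the libraries labelled knockout lower. It was 914.5 ± 38.4 CPM in controls and 809 ± 13.3 CPM in libraries labelled knockout (SD, n = 3 each). Cox7a2l accounted for most of that gap. Without it the sum was 710.3, 690.2 and 745 CPM for the first 3 controls and 686, 694 and 717 CPM for the first 3 libraries labelled knockout, and the groups overlapped. In number 4 the sum without Cox7a2l was 1936 and 1554 CPM.

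In numbers 1 to 3, 4 of 76 tested members (5.26%) passed the threshold with edgeR, against 14.1% of all genes (6.29% of genes lower, 7.78% higher), so the members' share lay under the background. Cox7a2l, Uqcrh and Atp5e were lower in the libraries labelled knockout and Ndufs8 was higher. With the library number as a block the count was 8 members (10.53%) against 24.2% of all genes (11.9% lower, 12.3% higher). Groups did not overlap in 22 members (28.9%), against 34.6% of all genes. With all 8 libraries and the block, 1 member was called, Uqcrh, against 2.49% of all genes (1.18% lower, 1.31% higher). The fits with the block rest on the number marking a pair, which the labels do not state.

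Cox7a2l, also known as SCAF1, had the largest difference among the members called in numbers 1 to 3. It was at 199, 189, 210.4 and 251 CPM across control libraries 1 to 4 and 114, 109, 108 and 252 CPM across the libraries labelled knockout. In numbers 1 to 3 the controls were all above 188 CPM and the libraries labelled knockout all below 115 CPM, whereas the pair numbered 4 was level near 250 CPM. The mean was 199 ± 10.9 CPM in controls 1 to 3 and 110.4 ± 3.37 CPM in the other group (SD, n = 3 each), a ratio of 0.554. There edgeR gave a log2 fold change of −0.85 (SE 0.06) with an adjusted p of 0.00019. With all 8 libraries it gave a log2 fold change of −0.54 (SE 0.30) and an adjusted p of 0.9999, an exact permutation test (two-sided) gave p = 0.143, and with the block the adjusted p was 0.118. The 95% interval over 8 libraries ran from −1.23 to 0.15. The pair differences were −0.80, −0.79, −0.96 and 0.01 on the log2 CPM scale. The gene lies at chr17:83501918-83517330, minus strand of GRCm38, and no other gene's exon overlaps its exons in GENCODE M21.

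Uqcrh encodes the hinge protein of complex III, which sits beside cytochrome c1. It was at 50.2, 50.1, 46.8 and 133 CPM across control libraries 1 to 4 and 37.7, 35.1, 34.5 and 111 CPM across the libraries labelled knockout. It was lower in the library labelled knockout in 4 of 4 pairs, with differences of −0.41, −0.51, −0.44 and −0.26 on the log2 CPM scale, and within numbers 1 to 3 the groups did not overlap. With the block edgeR gave a log2 fold change of −0.40 (SE 0.06) and an adjusted p of 0.0408. Without the block and with all 8 libraries it gave a log2 fold change of −0.36 (SE 0.52) and an adjusted p of 0.9999, and in numbers 1 to 3 an adjusted p of 0.00382. The gene lies at chr4:116066965-116075071, minus strand.

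Atp5e encodes the epsilon subunit of the ATP synthase central stalk. It was at 33.6, 30.6, 30.4 and 98.5 CPM across control libraries 1 to 4 and 25.00, 24.02, 25.8 and 84.8 CPM across the libraries labelled knockout. It too was lower in the library labelled knockout in 4 of 4 pairs, with log2 CPM differences of −0.42, −0.35, −0.24 and −0.22. In numbers 1 to 3 edgeR gave a log2 fold change of −0.34 (SE 0.08) and an adjusted p of 0.0241. With all 8 libraries it did not pass, with an adjusted p of 0.0633 with the block and 0.9999 without. The gene lies at chr2:174461072-174464105, minus strand. In all, 18 of 76 members were lower in 4 of 4 pairs, against 13.4% of all genes tested. Pair 4, which has no replicate, was lower in 74 of 76 members. Over pairs 1 to 3 the members split evenly, with 19 lower in each of these pairs and 19 higher in each.

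Ndufs8, an iron-sulphur subunit of the peripheral arm of complex I, went the other way. It was at 27.8, 22.3, 24.1 and 37.97 CPM across control libraries 1 to 4 and 31.3, 30.5, 31.8 and 33.9 CPM across the libraries labelled knockout. The libraries labelled knockout lay within 30.5 to 33.9 CPM, number 4 included, while the controls spread from 22.3 to 38.0 CPM. In numbers 1 to 3 the groups did not overlap. In numbers 1 to 3 edgeR gave a log2 fold change of 0.34 (SE 0.09) and an adjusted p of 0.047. With all 8 libraries it gave a log2 fold change of 0.19 (SE 0.18), and neither that fit (adjusted p = 0.9999) nor the fit with the block (adjusted p = 0.349) passed. The log2 CPM differences in pairs 1 to 4 were 0.17, 0.45, 0.40 and −0.16. The gene lies at chr19:3908863-3912774, minus strand.

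**Figure D3:**
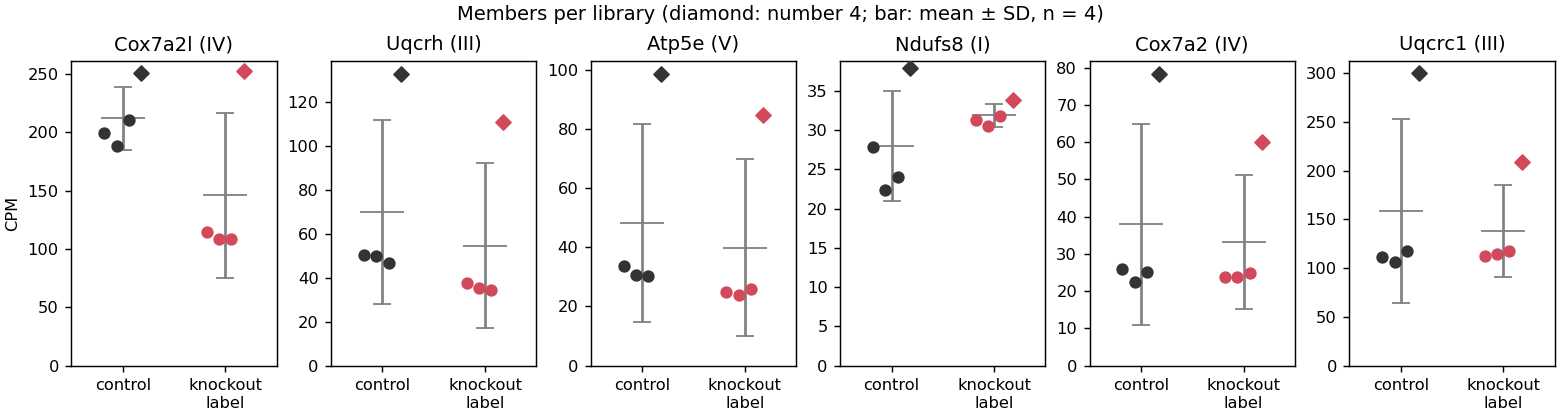
CPM (vertical axes from 0) of the 4 members called in numbers 1 to 3 and of Cox7a2 and Uqcrc1 for comparison, with controls in black, libraries labelled knockout in red, number 4 as diamonds and bars for the mean ± SD (n = 4). In Cox7a2l the 3 libraries labelled knockout and numbered 1 to 3 lie at 108 to 114 CPM, below the controls' 188 to 210 CPM, and the number 4 pair is level.

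RefSeq promoter windows, from 250 bases before to 50 after the start site on GRCm38.p6, were matched by symbol for 64 of the 76 tested members. Binding motifs of 3 factors known from respiratory chain promoters were searched on both strands. The NRF1 motif (GCGC, any base, then TGCGC) was found in 16 of the 64 windows (25%), against 11.4% of 10207 windows of tested genes and 5.19% of all 27025 windows. The ETS motif CCGGAAG, bound by GABP, was in 17 (26.6%, against 20% and 9.93%), and the YY1 motif AAGATGGC in 10 (15.6%, against 5.35% and 3.19%). At least 1 of the 3 motifs, which do not contain one another, was in 57.8% of members' windows and in 32.4% of those of tested genes. A match describes letters only and is not evidence of binding. The 150 bases before the start site are printed for the 4 members called in numbers 1 to 3, and for Cox6a1, a complex IV subunit whose difference there was 0.02, as an example that holds 2 kinds of motif. Each runs 5′ to 3′ toward the start site and capitals mark motif matches.
Cox7a2l, chr17:83514334-83514483, minus strand: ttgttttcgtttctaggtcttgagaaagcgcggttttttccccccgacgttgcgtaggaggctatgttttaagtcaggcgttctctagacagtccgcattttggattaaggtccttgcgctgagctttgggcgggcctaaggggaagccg
Uqcrh, chr4:116075071-116075220, minus strand: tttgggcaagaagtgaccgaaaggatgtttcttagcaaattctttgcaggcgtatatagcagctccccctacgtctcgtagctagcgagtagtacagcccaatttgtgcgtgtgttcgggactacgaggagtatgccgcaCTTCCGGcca
Atp5e, chr2:174464102-174464251, minus strand: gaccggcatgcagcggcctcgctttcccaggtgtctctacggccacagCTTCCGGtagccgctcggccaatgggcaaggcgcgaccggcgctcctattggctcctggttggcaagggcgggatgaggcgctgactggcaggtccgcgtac
Ndufs8, chr19:3912775-3912924, minus strand: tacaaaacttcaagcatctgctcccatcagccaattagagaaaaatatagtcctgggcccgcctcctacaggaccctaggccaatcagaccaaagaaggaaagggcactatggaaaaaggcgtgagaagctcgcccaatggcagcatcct
Cox6a1, chr5:115348959-115349108, minus strand: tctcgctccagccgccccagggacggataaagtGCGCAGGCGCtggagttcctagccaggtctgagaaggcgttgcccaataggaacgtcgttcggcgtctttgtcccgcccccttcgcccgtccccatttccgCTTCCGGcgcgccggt
Uqcrh and Atp5e each held an ETS match read from the opposite strand, at 10 to 4 and 102 to 96 bases before the start. Cox7a2l held none of the 3 motifs in its window of 300 bases, and Ndufs8 held 1 ETS match, 15 bases after the start and so outside the printed stretch. The Cox7a2l stretch, from 83514334 to 83514483, lies inside the GENCODE M21 gene span, whose 5′ end on the minus strand is at 83517330. The bases before that end were not searched. Cox6a1 held an NRF1 match 117 to 108 bases before the start, another beginning 162 bases before it and outside the printed stretch, and an ETS match beginning 16 bases before it.

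Complex I, the NADH dehydrogenase, had 35 tested members of 39. Ndufs5 had no counts in any library, and whether its RNA was absent or its reads were not counted was not tested. Ndufa11b and Ndufb4c, both annotated as processed pseudogenes, reached at most 1 and 13 counts. Ndufa4l2 is described with the isoforms. Per kilobase of transcript, the tested members had a median of 33.1 CPM per kb in libraries 1 to 3, the lowest of the 5 complexes. The highest was Ndufa4 at 114 ± 4.8 CPM per kb (SD, n = 6), a subunit now often assigned to complex IV, and the lowest was Ndufb2 at 3.18 ± 0.324. The length used was 2413 bases for Ndufb2 against 460 for Ndufa4, so the level of Ndufb2 per kilobase depends on the annotated transcripts.

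In the genotype comparison over 8 libraries, complex I log2 fold changes ran from −0.37 (Ndufc1) to 0.19 (Ndufs8), with 34 of 35 below 0. Ndufc1, a membrane-arm subunit, was at 7.73, 9.72, 8.33 and 24.6 CPM across control libraries 1 to 4 and 7.38, 7.66, 6.45 and 17.4 CPM across the libraries labelled knockout. Its groups overlapped over 8 libraries and not in numbers 1 to 3, and edgeR gave a log2 fold change of −0.37 (SE 0.48). Ndufa12, an accessory subunit near the electron-input module, was at 24.9, 22.7, 25.7 and 42.9 CPM across control libraries 1 to 4 and 21.8, 23.1, 22.2 and 32.9 CPM across the libraries labelled knockout. Ndufa7 was at 35.8, 35.9, 35.6 and 56.1 CPM across control libraries 1 to 4 and 32.1, 31.5, 31.1 and 49.02 CPM across the libraries labelled knockout, with libraries 1 to 3 labelled knockout all under their controls and a fold change of −0.19 (SE 0.22) that did not pass. In all 35 the library labelled knockout 4 was below control 4.

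Of the catalytic core subunits of complex I named here, Ndufs8 passed in numbers 1 to 3 without the block. Ndufs1, which carries iron-sulphur clusters of the electron-input module, was at 47.9, 48.9, 49.7 and 113 CPM across control libraries 1 to 4 and 52.7, 57.3, 58.7 and 90.8 CPM across the libraries labelled knockout. Its libraries labelled knockout were above the controls in numbers 1 to 3 and below in number 4, and of the 4 edgeR fits (8 libraries or numbers 1 to 3, each with and without the block) it passed in numbers 1 to 3 with the block alone (a log2 fold change of 0.21 (SE 0.06), adjusted p = 0.0296). It was named after its values were seen, as were Ndufv1 and Ndufv2. The log2 fold changes in numbers 1 to 3 were −0.13 for Ndufv1, which binds NADH, and 0.10 for Ndufv2, and neither passed. Ndufab1, outside the name pattern, was at 30.3, 31.2, 29.8 and 71.4 CPM across control libraries 1 to 4 and 34.9, 32.01, 35.1 and 49.6 CPM across the libraries labelled knockout, with the same high pair. Ndufb2 had a fold change whose sign depended on the scaling and model, at −0.01 with TMM factors, 0.01 with total counts and 0.10 with the block, and its exons overlap those of Gm42420 on its strand and of Braf and Gm16272 on the other. The 26 tested complex I members not named here had fold changes from −0.23 to 0.24 in numbers 1 to 3, and none passed.

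Complex II, succinate dehydrogenase, links the tricarboxylic acid cycle to the chain, and it is the only complex whose subunits are all encoded in the nucleus. All 4 genes were tested and none passed. Sdha, the flavoprotein that oxidises succinate, was at 195, 178, 189 and 436 CPM across control libraries 1 to 4 and 193, 200.3, 199.9 and 319 CPM across the libraries labelled knockout. Sdhb, the iron-sulphur subunit, was at 60.7, 53.5, 59.1 and 181 CPM across control libraries 1 to 4 and 64.9, 63.1, 59.7 and 126 CPM across the libraries labelled knockout. Both groups overlapped in each, and number 4 was high in both. The membrane anchors had the same high pair. Sdhc was at 56.8, 55.5, 62.7 and 144 CPM across control libraries 1 to 4 and 59.5, 60.2, 61.3 and 124 CPM across the libraries labelled knockout. Sdhd was at 70.4, 56.04, 71.4 and 215 CPM across control libraries 1 to 4 and 66.3, 68.8, 70.6 and 166 CPM across the libraries labelled knockout. The 4 fold changes ran from −0.17 to −0.07 with 8 libraries and from 0.05 to 0.12 in numbers 1 to 3, so their sign depended on number 4. Relative to the complex, Sdha made up 43.4% of the summed CPM in the library labelled knockout 4 against 50.3% to 51.0% in its group's other libraries, and Sdhd 22.6% against 17.3% to 18.0%.

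Complex III, the cytochrome bc1 complex, had all 8 members tested, and all 8 had a fold change below 0 with 8 libraries, from −0.36 (Uqcrh) to −0.07 (Uqcrb). Uqcrfs1, the Rieske iron-sulphur protein, was at 51.9, 45.9, 53.3 and 166 CPM across control libraries 1 to 4 and 46.8, 45.4, 49.01 and 115 CPM across the libraries labelled knockout. The core proteins Uqcrc1 and Uqcrc2 had fold changes of −0.20 and −0.23, and 0.05 and −0.01 in numbers 1 to 3. Uqcrc2 was at 74.5, 69.7, 74.7 and 207 CPM across control libraries 1 to 4 and 74.7, 70.6, 71.2 and 147 CPM across the libraries labelled knockout. The 2 small subunits with the next smallest p, Uqcr11 and Uqcrq, did not pass either. Uqcr11 was at 21.2, 24.7, 21.7 and 61.1 CPM across control libraries 1 to 4 and 24.1, 19.2, 20.7 and 45.4 CPM across the libraries labelled knockout. Uqcrq was at 35.9, 35.7, 36.5 and 101 CPM across control libraries 1 to 4 and 35.4, 31.8, 34.5 and 75.2 CPM across the libraries labelled knockout. In both the groups overlapped, also within numbers 1 to 3 for Uqcr11. Uqcrh made up 13.2% of the complex sum in the library labelled knockout 4 against 8.73% to 9.31% in its group's other libraries. Cyc1, outside the name pattern, was at 44.3, 44.4, 42.6 and 192 CPM across control libraries 1 to 4 and 42.7, 44.7, 43.5 and 109.6 CPM across the libraries labelled knockout. It varied only from 42.6 to 44.7 CPM in numbers 1 to 3, with the high pair in number 4. The remaining Uqcr10 and Uqcrb had fold changes of 0.11 and 0.11 in numbers 1 to 3 and did not pass.

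Complex IV, cytochrome c oxidase, had 12 tested members of 18, and its median per kilobase was the highest of the 5 complexes at 91.7 CPM per kb in libraries 1 to 3. The untested 6 were Cox7b2, Cox8b and Cox8c, with no counts in any library, and Cox4i2, Cox6a2 and Cox7a1. Cox4i1, the common form of the regulatory subunit 4, was the highest per kilobase at 228 ± 24.2 CPM per kb (SD, n = 6). It was at 188, 163, 202 and 403 CPM across control libraries 1 to 4 and 160.0, 157, 164 and 320.0 CPM across the libraries labelled knockout. It was lower in the library labelled knockout in 4 of 4 pairs, and of the same 4 fits it passed in numbers 1 to 3 with the block alone (a log2 fold change of −0.19 (SE 0.06), adjusted p = 0.0385). Reads of the antisense gene Emc8, whose exons overlap it, cannot be told apart, since no source used here states whether the counting used strand. Exons of 26 of the 86 members overlap those of an antisense gene.

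Cox5b, a nuclear subunit on the matrix side, went the other way in the same fit (a log2 fold change of 0.21 (SE 0.07), adjusted p = 0.0464), and was named after its values were seen. It was at 48.3, 54.1, 51.1 and 149 CPM across control libraries 1 to 4 and 56.3, 56.5, 65.1 and 117 CPM across the libraries labelled knockout. In number 4 it was lower in the library labelled knockout. Cox6c was at 39.4, 44.2, 38.6 and 103 CPM across control libraries 1 to 4 and 42.4, 38.9, 37.6 and 82.6 CPM across the libraries labelled knockout, with overlapping groups. The remaining members Cox5a, Cox7b, Cox7c and Cox8a had fold changes between −0.05 and 0.07 in numbers 1 to 3 and did not pass.

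Several complex IV subunits, and 1 of complex I, exist as a common form and a form limited to a tissue or to low oxygen. The muscle form Cox6a2 had 0, 1, 0 and 10 counts across control libraries 1 to 4 and 15, 7, 14 and 2 across the libraries labelled knockout. Its counts were higher in libraries 1 to 3 labelled knockout than in the matching controls and lower in number 4, all of them few, and its exons overlap those of the antisense gene Itgad. The common form Cox6a1 was at 106, 107, 117 and 285 CPM across control libraries 1 to 4 and 109, 114, 109.9 and 218 CPM across the libraries labelled knockout. The other muscle form, Cox7a1, had 2, 7, 6 and 62 counts across control libraries 1 to 4 and 3, 3, 5 and 23 across the libraries labelled knockout, with more in number 4. Cox7a2, the common form, was at 25.9, 22.4, 25.04 and 78.4 CPM across control libraries 1 to 4 and 23.7, 23.8, 24.9 and 60.2 CPM across the libraries labelled knockout, and did not follow Cox7a2l, since its fold change in numbers 1 to 3 was −0.02 (SE 0.08). Per kilobase, Cox7a2l made up 82.1%, 83.4%, 83.4% and 65.7% of the sum of the pair in controls 1 to 4 and 74.3%, 73.2%, 72.2% and 71.5% in libraries 1 to 4 labelled knockout. The 4 libraries labelled knockout lay close together on this measure and between control 4 and the other controls.

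Forms linked to low oxygen had few or no counts in most libraries. Ndufa4l2, a relative of Ndufa4 known to be induced by low oxygen, had 0, 1, 0 and 351 counts across control libraries 1 to 4 and 50, 0, 0 and 28 across the libraries labelled knockout. All but 1 of the reads came from 3 libraries, control 4 and the libraries 1 and 4 labelled knockout. In control 4 it reached 24.5 CPM and made up 8.89% of the per-kilobase sum with Ndufa4, against 2.74% and 1.26% in libraries 1 and 4 labelled knockout. For this gene an antisense overlap with Shmt2 exons means that reads of the pair cannot be told apart. Ndufa4 itself was at 49.3, 50.4, 54.9 and 124 CPM across control libraries 1 to 4 and 54.3, 52.98, 51.6 and 78.6 CPM across the libraries labelled knockout. Cox4i2, the lung and low-oxygen form of subunit 4, had 6, 0, 13 and 70 counts across control libraries 1 to 4 and 11, 0, 7 and 8 across the libraries labelled knockout, which is at most 1.24% of the per-kilobase sum with Cox4i1.

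Cox6b2, the testis form of subunit 6b, was the only member with groups that did not overlap, against 3.59% of all genes, and it did so at a very low level. It had 19, 11, 9 and 16 counts across control libraries 1 to 4 and 29, 24, 29 and 24 across the libraries labelled knockout. That corresponds to 0.817 ± 0.29 CPM in controls and 1.62 ± 0.222 CPM in libraries labelled knockout (SD, n = 4 each). EdgeR gave a log2 fold change of 0.98 (SE 0.32) with an adjusted p of 0.747, and 0.12 with the block. With the block and numbers 1 to 3 alone it passed, with a log2 fold change of 1.15 (SE 0.37) and an adjusted p of 0.0496, while without the block the adjusted p there was 0.0746. An exact permutation test (two-sided) gave p = 0.0286, the smallest that 4 against 4 allows. Its partner Cox6b1, which holds the oxidase dimer on the intermembrane side, was at 50.4, 47.9, 46.5 and 159 CPM across control libraries 1 to 4 and 48.4, 45.7, 47.2 and 128 CPM across the libraries labelled knockout.

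**Figure D4:**
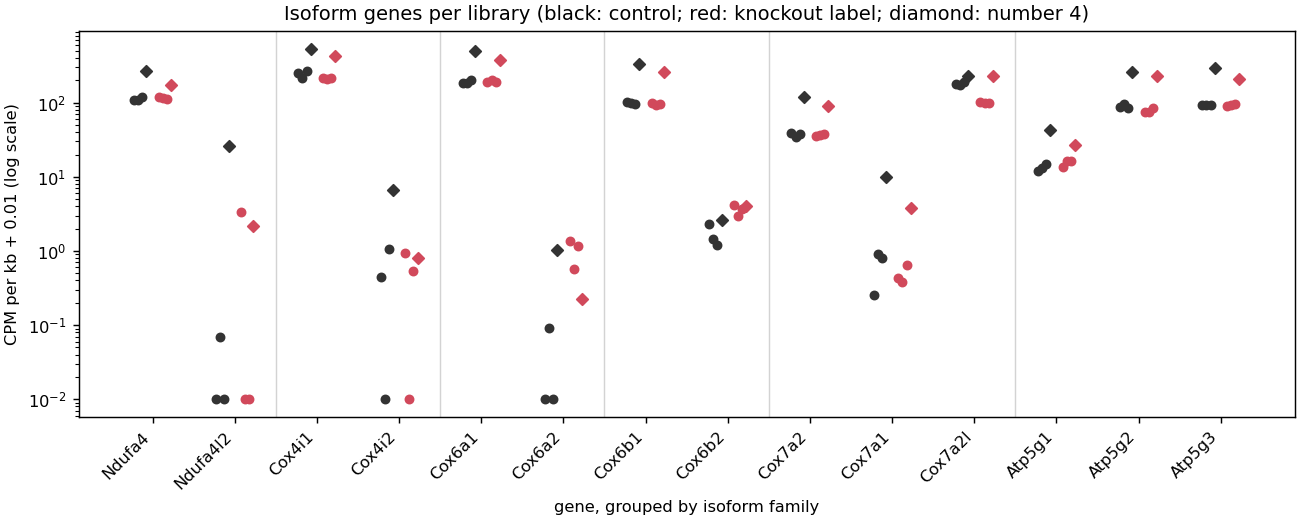
CPM per kb of transcript plus 0.01 (log scale) for the isoform genes of complexes I, IV and V, with 1 point per library, controls in black, libraries labelled knockout in red and number 4 as diamonds; grey lines separate families. Cox6a2, Cox7a1 and Cox4i2 lie far under their common partners in all 8 libraries, and Cox7a2l lies above Cox7a2.

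Complex V, the ATP synthase, had all 17 members tested, and all 17 fold changes were below 0 with 8 libraries, from −0.28 (Atp5b) to −0.07. Atp5b, the catalytic beta subunit, was the highest of all members per kilobase at 257 ± 15.7 CPM per kb in libraries 1 to 3 (SD, n = 6). It was at 493, 511, 519 and 1203 CPM across control libraries 1 to 4 and 437, 511, 483 and 813 CPM across the libraries labelled knockout. Its log2 CPM differences in pairs 1 to 4 were −0.17, 0.00, −0.10 and −0.57, so pair 4 held the largest. Atp5d, the delta subunit beside Atp5e in the central stalk, was at 105, 99.3, 102 and 266 CPM across control libraries 1 to 4 and 91.2, 101, 103 and 204 CPM across the libraries labelled knockout, with a fold change of −0.05 (SE 0.06) in numbers 1 to 3. Atp5a1 and Atp5c1, the alpha and gamma subunits, had 0.10 and −0.04 there, and did not pass. The 9 members not otherwise named, among them Atp5pb of the peripheral stalk and Atp5o, which joins that stalk to the catalytic head, had fold changes from −0.12 to 0.16 there.

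The c subunit, which forms the rotor ring, is made from 3 genes whose mature products are identical. Atp5g1 was at 32.2, 35.7, 39.2 and 115 CPM across control libraries 1 to 4 and 35.8, 43.3, 43.7 and 71.5 CPM across the libraries labelled knockout. Atp5g2 was at 50.5, 56.3, 49.9 and 152 CPM across control libraries 1 to 4 and 43.4, 43.4, 50.01 and 135 CPM across the libraries labelled knockout. Atp5g3 was at 66.1, 65.8, 67.4 and 209 CPM across control libraries 1 to 4 and 63.9, 66.3, 69.3 and 148 CPM across the libraries labelled knockout. All 3 had overlapping groups and the high pair in number 4. Per kilobase, Atp5g1 made up 5.76% to 8.87% of the sum of the 3 over the 8 libraries, Atp5g2 40.6% to 49.7% and Atp5g3 44.6% to 50.6%. Those shares depend on the transcript lengths used, 2675 bases for Atp5g1 against 586 for Atp5g2 and 718 for Atp5g3. In plain CPM Atp5g1 was also the lowest of the 3, but by far less. In library 2 labelled knockout it was nearly level with Atp5g2. None of the 3 passed in any of the 4 fits named above. Because their coding parts are alike, how reads shared between them were counted is uncertain.

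**Figure D5:**
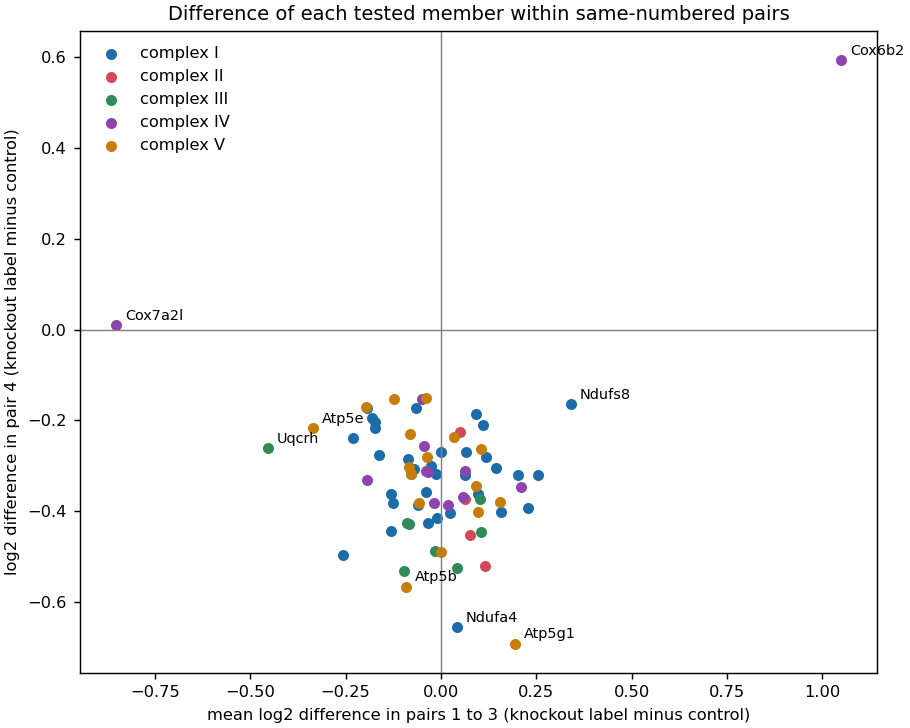
Mean log2 CPM difference in pairs 1 to 3 (horizontal axis, label knockout minus control) against the difference in pair 4 (vertical axis) for the 76 tested members, 1 point each, coloured by complex. Most points lie within 0.25 of 0 on the horizontal axis (69 of 76) and below 0 on the vertical axis (74 of 76), with Cox7a2l far to the left and level with 0.

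Genes that build or feed the chain were taken as lists. None of 15 complex I assembly factors, 34 assembly factors of complexes II to V, 19 electron carriers and coenzyme Q enzymes, 18 regulators, 18 genes of the tricarboxylic acid cycle or 20 glycolysis genes passed with edgeR over 8 libraries, where the background was 0%. Their medians were −0.10, −0.10, −0.05, −0.04, −0.16 and −0.14, against −0.02 over all genes. In numbers 1 to 3, where the background was 14.1%, 1 of 15 complex I assembly factors was lower, 1 of 34 of the other assembly factors was lower, 1 of 19 carriers was lower and 1 of 18 cycle genes was higher. Of the glycolysis genes 2 of 20 were higher and 2 lower, and of the regulators 0 of 18.

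The genes of these lists called in numbers 1 to 3 without the block come first. Ndufaf4, an assembly factor of the complex I peripheral arm, had a log2 fold change of −0.44 (SE 0.12, edgeR adjusted p = 0.0406) in numbers 1 to 3, and with 8 libraries its fold change was −0.52 (SE 0.15, adjusted p = 0.572). Sdhaf1, needed for the iron-sulphur clusters of Sdhb, had −0.52 (adjusted p = 0.0361 in numbers 1 to 3), and Coq2, an enzyme of coenzyme Q synthesis, −0.47 (adjusted p = 0.0148). Ogdh, the 2-oxoglutarate dehydrogenase of the tricarboxylic acid cycle, was higher by 0.26 (adjusted p = 0.0203). In glycolysis Slc2a1, the glucose transporter, had −0.31 and Gpi1 −0.34, while Pgam1 and Ldha, the latter making lactate, each had 0.23. Of the 2 genes with the smallest unadjusted p over 8 libraries in each of these lists, the others had log2 fold changes over 8 libraries of −0.35 (Ecsit, of complex I assembly), −0.48 (Uqcc2, of complex III assembly), −0.27 (Atpaf1, of ATP synthase assembly), −0.36 (Coq3), −0.30 (Dlat), −0.40 (Idh3a), −0.41 (Eno1) and 1.54 (Eno2). None of these 8 passed in that fit or in numbers 1 to 3 without the block, while Atpaf1, Dlat and Eno1 passed in numbers 1 to 3 with the block (adjusted p = 0.0463, 0.0442 and 0.0393). Among the regulators Pprc1 had −0.25 over 8 libraries and passed in numbers 1 to 3 with the block (adjusted p = 0.00468), and Ppargc1b, a coactivator of respiratory genes, had −0.82 (SE 0.80) with 8 libraries and −0.65 (SE 0.15) with the block, and neither passed (adjusted p = 0.9999 and 0.0765). Of the ribosomal proteins, those with the smallest p over 8 libraries had log2 fold changes of −0.22 (Mrps2) and −0.34 (Mrpl30) for the mitochondrial ribosome and −0.63 (Rps7) and −0.51 (Rpl12) for the cytosolic one, and none of the 4 passed in that fit.

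Among the like parts, cytosolic ribosomal protein genes had the most calls. Of 83 tested, 73 were called lower in numbers 1 to 3, against 6.29% of all genes, and 50 with 8 libraries and the block, against 1.18% of all genes. Over 8 libraries without the block edgeR called 0 of the 83, with 35 at an unadjusted p under 0.05, and DESeq2 called 9. The log2 fold changes had medians of −0.55 in numbers 1 to 3 and −0.45 over 8 libraries without the block. Among these Rps7 had −0.63 (SE 0.13, adjusted p = 0.471) with 8 libraries and an adjusted p of 0.0458 with the block. Of 78 mitochondrial ones, 1 was called lower in numbers 1 to 3, with a median of 0.03. The respiratory chain members had a median of −0.02 there, near that of the mitochondrial ribosomal proteins. Cytosolic ribosomal protein genes have many processed pseudogenes, so their counts are uncertain where reads could be split.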

How the data were processed

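Polyadenylated RNA of 8 libraries was sequenced, with group and number taken from their titles. The values the authors deposited are raw read counts per gene symbol. The submitters' processing notes name STAR 2.7.11b, featureCounts 2 and the build GRCm38 (mm10). For the annotation, strand use and multiply aligned reads, the settings are not given in the sources used here. Symbols were matched to GENCODE M21 (24321 of 25239 to exactly 1 gene) for coordinates, exon overlaps and the median length of a gene's protein-coding transcripts.

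Counts were tested with edgeR 4.0.16 (R 4.3.3): filterByExpr, TMM factors, and the robust quasi-likelihood F test on genotype alone with Benjamini-Hochberg adjustment over all 12837 genes passing, threshold 0.05. A prior count of 2 was added for log2 CPM. Single members were also compared with an exact permutation test over 70 splits. Alternatives were RLE, upper-quartile and total-count scaling, no filter, DESeq2 1.42.0, limma-voom 3.58.1, a block for the library number, and leaving out libraries or numbers. The code was run on counts simulated with known fold changes and with levels shared by same-numbered libraries. That run checked the mean error of the fold changes and set no limit on missed or false calls.

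Same-numbered libraries were taken as pairs from the data, not from any label: after removal of group means they correlated across genes with r of 0.460 to 0.829 over 8 libraries and 0.161 to 0.376 in numbers 1 to 3, above the minimum of 0.1. Unlike numbers among 1 to 3 gave −0.255 to −0.0234. Removal of group means pulls these below 0 when same numbers lie above 0, so they are not separate evidence of pairing. Over 8 libraries unlike numbers gave −0.757 to 0.572, and 6 of the 8 libraries correlated best with their own number. Control 1 correlated more with the library labelled knockout 2 (0.489) than with the one labelled knockout 1 (0.460). No 2 libraries of a group agreed within sampling noise (chi-square per degree of freedom of 8.56 or more in genes with 20 or more counts per pair).

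Members and gene lists were chosen with earlier results of these data known. Values per library are given by rule for the 4 members with the smallest p in complexes I, III, IV and V, the Sdh genes, the highest and lowest member per kilobase of each complex, and isoform families. Of the pathway lists, the 2 genes with the smallest p are named by rule. Called genes, and members named only for a call or a role, were chosen after their values were seen.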

Additional observations from a re-analysis of the deposited data

Results flagged for a closer look

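In 10 of 10 cases (5 complexes in each group of 4) the summed CPM of the library numbered 4 lay far from the group's other libraries by Dixon's test at the 95% level. Chance flags about 1 in 20 groups where these are independent. The 10 cases rest only on control 4 and the library labelled knockout 4, with the complexes high together, so they are not separate tests. Control 4 stood at 2441 CPM for complex I, 977.5 CPM for complex II, 1150.1 CPM for complex III, 2186 CPM for complex IV and 4407 CPM for complex V. The library labelled knockout 4 stood at 1945, 735, 839, 1806 and 3338 CPM. Single members showed the same, in controls in 69 of 76 (against 20.3% of all genes) and in libraries labelled knockout in 64 of 76 (against 27.8%), in each case through number 4.

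Shares of a complex's summed CPM are given only for tested members whose values per library are given by rule, in each group separately. Among these, a single library stood apart by the same test for 11 members, all but 1 through number 4. The 11 were not set against the number that chance would flag, so they are listed as a description only. In control 4, Ndufa7 was at 2.30% of complex I (other controls 3.27% to 3.40%), Sdhb at 18.5% of complex II (15.5% to 15.8%), Cox7a2l at 11.5% of complex IV (21.5% to 22.0%) and Atp5g3 at 4.73% of complex V (3.72% to 3.78%). In control 2, Uqcr11 was at 6.18% of complex III (5.15% to 5.31%).

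In the library labelled knockout 4, Ndufs8 was at 1.74% of complex I (its group's other libraries 2.85% to 2.98%), Sdha at 43.4% of complex II (50.3% to 51.0%) and Sdhd at 22.6% (17.3% to 18.0%). Uqcrh was at 13.2% of complex III (8.73% to 9.31%), Cox7a2 at 3.33% of complex IV (2.96% to 3.02%) and Atp5e at 2.54% of complex V (1.33% to 1.47%).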

How the results depend on the processing

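Scaling by RLE, upper quartile or total counts, no filter and limma-voom left the counts of called genes and members at 0, and DESeq2 called 171 genes, 1 complex I assembly factor, 9 cytosolic ribosomal proteins and 0 members. The replicate block gave 319 genes, 1 member and 50 cytosolic ribosomal proteins, and changed no other list's count. Leaving out 1 library or 1 number gave 0 to 1817 genes, 0 to 4 members and 0 to 73 cytosolic ribosomal proteins, with 1817 without number 4, 38 without control 4 and 24 without the library labelled knockout 4. Over these, glycolysis ranged from 0 to 4, the regulators stayed at 0, and each other list ranged from 0 to 1. Without number 4 and with the replicate block there were 3132 genes, 8 members, 73 cytosolic and 5 mitochondrial ribosomal proteins, 8 glycolysis genes, 4 carriers, 3 cycle genes, 2 assembly factors of complexes II to V, 1 of complex I and 1 regulator. The complexes' median fold changes ranged, over the libraries left out, from −0.43 to 0.26 for I, −0.45 to 0.41 for II, −0.61 to 0.30 for III, −0.54 to 0.42 for IV, −0.52 to 0.35 for V and −0.49 to 0.32 over all members, highest without control 4.

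Over all 76 tested members, 2 had a fold change that changed sign against the genotype fit and also passed the threshold, Ndufs1 and Cox5b without number 4 and with the block (adjusted p = 0.0296 and 0.0464 with edgeR). Signs changed in 72 members without control 4, in 32 without number 4, with or without the block, in 11 with the block over 8 libraries and in 11 with limma-voom. Among the members named in the text, Ndufb2 reversed with total counts (0.013), no filter (0.0026), limma-voom (0.13) and the replicate block (0.10). Ndufs1 reversed with upper-quartile factors (0.00027), total counts (0.023), no filter (0.0058), limma-voom (0.074) and the replicate block (0.069). Limma-voom and the replicate block also reversed Atp5o (0.021 and 0.019) and Cox5b (0.073 and 0.068). Without number 4 and with the block the reversed values among them were 0.10 for Atp5a1, 0.20 for Atp5g1, 0.0036 for Atp5g3, 0.16 for Atp5o, 0.095 for Atp5pb, 0.068 for Cox5a, 0.21 for Cox5b, 0.022 for Cox6a1, 0.062 for Cox7b, 0.044 for Ndufa4, 0.26 for Ndufb2, 0.21 for Ndufs1, 0.10 for Ndufv2, 0.080 for Sdha, 0.12 for Sdhb, 0.054 for Sdhc, 0.066 for Sdhd, 0.11 for Uqcr10, 0.11 for Uqcrb and 0.046 for Uqcrc1. Over the libraries left out, 40 members named in the text crossed 0. Their ranges were −0.33 to 0.32 for Atp5a1, −0.51 to 0.14 for Atp5b, −0.33 to 0.16 for Atp5c1, −0.54 to 0.28 for Atp5d, −0.95 to 0.33 for Atp5e, −0.44 to 0.44 for Atp5g1, −0.76 to 0.37 for Atp5g2 and −0.62 to 0.38 for Atp5g3. Further ranges were −0.85 to 0.59 for Atp5k, −0.46 to 0.52 for Atp5o, −0.27 to 0.28 for Atp5pb, −0.57 to 0.12 for Cox4i1, −0.45 to 0.41 for Cox5a, −0.35 to 0.52 for Cox5b, −0.47 to 0.32 for Cox6a1 and −0.69 to 0.47 for Cox6b1. The next ranges were −0.50 to 0.30 for Cox6c, −0.65 to 0.43 for Cox7a2, −0.61 to 0.51 for Cox7b, −0.42 to 0.27 for Cox7c, −0.72 to 0.51 for Cox8a, −0.38 to 0.028 for Ndufa12, −0.39 to 0.20 for Ndufa4 and −0.35 to 0.60 for Ndufb2. Others ran from −0.81 to 0.17 for Ndufc1, −0.21 to 0.40 for Ndufs1, −0.61 to 0.24 for Ndufv1, −0.24 to 0.26 for Ndufv2, −0.34 to 0.28 for Sdha, −0.50 to 0.44 for Sdhb, −0.40 to 0.38 for Sdhc and −0.59 to 0.49 for Sdhd. The last ran from −0.73 to 0.64 for Uqcr10, −0.59 to 0.27 for Uqcr11, −0.20 to 0.24 for Uqcrb, −0.47 to 0.31 for Uqcrc1, −0.56 to 0.31 for Uqcrc2, −0.75 to 0.34 for Uqcrfs1, −0.97 to 0.14 for Uqcrh and −0.62 to 0.29 for Uqcrq. The cause of these shifts was not tested. Because 1 pair of 4 carries most of the members' spread, their differences over 8 libraries had, without the block, a median SE of 0.41, and smaller changes could not be told from that spread. Of the 76 tested members 75 had at least 100 counts in every library, all but Cox6b2. Members just above that count were also measured less precisely in numbers 1 to 3. Atp5k and Ndufc1, with as few as 108 and 116 counts, had SEs of 0.150 and 0.149 there. The median SE over the members was 0.077.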
